A study of Mus musculus with 58 samples.

Results

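Female mouse embryonic stem (ES) cells in which Xist had been induced for 1 day were compared between a line that lacks the Polycomb-recruiting region of Xist and carries the SPOC mutation of SPEN (DelPID_SPOC) and a line that carries the SPOC mutation alone (SPOC). The samples were taken by their titles: the clones A8 and G3 of DelPID_SPOC and the clones C11, D9 and H1 of SPOC, 5 of the 58 libraries of the series, each read beside the day 0 library of the same clone. All cells are hybrids of a 129 (Dom) and a castaneus (Cast) mouse, and in all of them the Xist promoter of the Dom X was replaced by a promoter that doxycycline switches on. Day 1 cultures had received doxycycline at 1 ug/mL and day 0 cultures had not. In both lines point mutations in the SPOC domain of SPEN abolish its binding to the NCoR corepressor complex, per the study, and DelPID_SPOC also lacks the B-repeat and most of the C-repeat of Xist. The SPOC mutation of DelPID_SPOC is given by the sample titles alone, as the engineering label of these samples names only the Xist promoter and the deletion.

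Each library is 1 culture of 1 clone, grown in serum and LIF on inactivated mouse fibroblasts, which were depleted before plating by letting them attach first. The study describes 1 of the DelPID_SPOC clones, which it calls clone G, as tetraploid with 2 copies of each X, and this is probably G3. DelPID_SPOC was derived by introducing the SPOC mutation into a line that already carried the deletion, and ES libraries with the deletion alone are not analysed here. The deletion can therefore not be told apart from other differences between the lines. Chromatin-associated RNA was sequenced, which is rich in nascent transcripts, so the values are closer to transcription than to stable mRNA. The 10 libraries held 11.8 M to 30.0 M fragments (M for mega), 44.2% to 47.5% of them assigned to an allele. The value read for each X gene is its Dom share, the part of its allelic fragments that came from Dom, where 0.5 means that both X chromosomes gave the same amount of RNA and 0 that the X with the inducible Xist is silent. It was read for the 246 X genes of the study's table, all on the side of Xist towards the start of the chromosome, with a median per library of 164 to 443 allelic fragments per gene.

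Xist RNA coats the chromosome that transcribes it and silences its genes. The A-repeat near its start binds SPEN, whose SPOC domain recruits the NCoR-HDAC3 corepressor. The B-repeat binds hnRNPK, which brings PRC1 with PCGF3 or PCGF5; this complex ubiquitinates histone H2A, and PRC2 and further PRC1 follow. SPOC cells thus retain the Polycomb arm, and DelPID_SPOC cells lack the Xist sequence that recruits it.

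The B-repeat is built of C-rich units, and a run of such units from the reference transcript is shown because the deletion takes out this kind of sequence. The letters GCCCC, searched on the transcript strand, occurred 30 times in Xist-201 (GENCODE M21 annotation, 17946 bases), and 23 of these lay within the 188 bases below, at chrX:103480208-103480395 of mm10 on the minus strand, in exon 1. C made up 63.3% of this stretch and 21.6% of the transcript. Capitals mark the letters GCCCC. The exact ends of the deletion are not given in the sources used here, and the stretch is the reference sequence, not that of the edited cells.
Xist-201 bases 2860 to 3047: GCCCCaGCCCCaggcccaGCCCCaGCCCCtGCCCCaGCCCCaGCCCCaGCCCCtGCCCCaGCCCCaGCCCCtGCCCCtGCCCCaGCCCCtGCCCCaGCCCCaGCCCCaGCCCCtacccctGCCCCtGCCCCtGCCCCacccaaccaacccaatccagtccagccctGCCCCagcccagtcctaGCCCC

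After 1 day of Xist, X genes of the Dom chromosome kept nearly all of their RNA in DelPID_SPOC and lost part of it in SPOC. The median Dom share over the 246 genes on day 1 was 0.514 in A8 and 0.513 in G3. In SPOC it was 0.433 in C11, 0.446 in D9 and 0.446 in H1. Both DelPID_SPOC libraries lay above all SPOC libraries, by 0.0722 between the means of 0.514 ± 0.000554 (SD, n = 2) and 0.442 ± 0.0072 (SD, n = 3). The exact permutation p, two-sided, was 0.1, which is the lowest value that 2 against 3 libraries can give. The day 0 medians were 0.531 in A8 and 0.519 in G3 against 0.519, 0.500 and 0.519 in C11, D9 and H1, and these overlapped (exact permutation p = 0.5). The shares also spread less on day 1 in DelPID_SPOC, with an interquartile range of 0.0961 ± 0.0118 (SD, n = 2) against 0.137 ± 0.014 (SD, n = 3), and again the exact permutation p was 0.1.

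**Figure D1:**
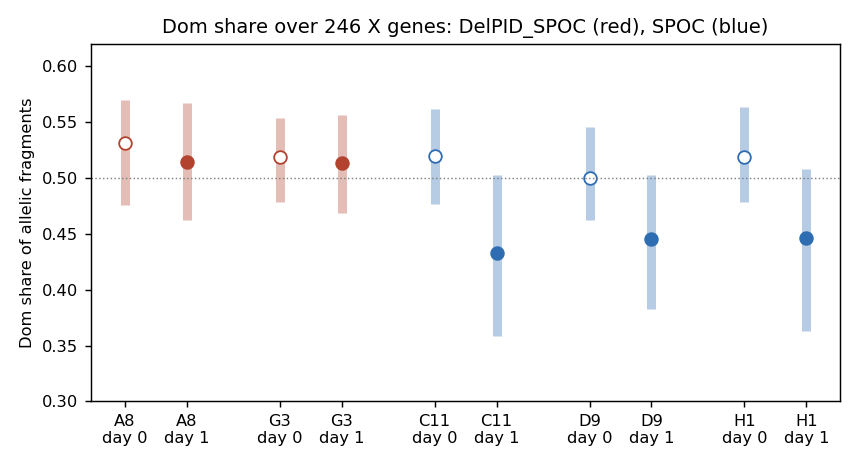
Median (point) and quartiles (bar) of the Dom share over 246 X genes in each of the 10 libraries, with open points for day 0 and filled points for day 1, DelPID_SPOC clones A8 and G3 in red and SPOC clones C11, D9 and H1 in blue. The 3 SPOC medians on day 1 lie between 0.433 and 0.446 and the other 7 medians at or above 0.500.

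Read beside its own day 0, the median fell in every clone, but by different amounts. It changed by -0.0172 in A8 and -0.00551 in G3, against -0.0860 in C11, -0.0542 in D9 and -0.0730 in H1. The mean change in DelPID_SPOC was 16.0% of that in SPOC, 24.1% for A8 and 7.75% for G3. The difference between the lines in this change was 0.0598, with an exact permutation p of 0.1. It was 0.0597 over the 261 genes before Xist with at least 10 allelic fragments in each library. Over all 412 X genes at that minimum it was 0.0937, but these include genes beyond Xist, whose alleles could not be read. Counted by gene, 150 and 154 of 246 genes had a lower share on day 1 than on day 0 in A8 and G3, against 211, 203 and 206 in C11, D9 and H1. A fall of more than 0.1 was seen in 20 and 13 genes of the DelPID_SPOC clones and in 93, 63 and 93 of the SPOC clones. On day 1, 25 and 24 genes were below a share of 0.4 in A8 and G3 and 89, 70 and 83 in C11, D9 and H1; in the day 0 libraries 14 to 25 genes were. These are bulk cultures, in which fewer cells with a silenced X and less silencing per cell cannot be told apart.

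The counts of both alleles show which chromosome the change came from. Fragments were summed over the 246 genes and scaled to the allelic fragments of autosomal genes in the same library. Dom fragments changed by -2.02% in A8 and -3.23% in G3 from day 0 to day 1, and by -22.7%, -19.6% and -25.2% in C11, D9 and H1. Cast fragments changed by 1.34% and 0.307% in the DelPID_SPOC clones and by -2.06%, -4.04% and -5.58% in the SPOC clones. In each SPOC clone the Dom allele thus lost several times more RNA than the Cast allele, and in neither DelPID_SPOC clone did the sum of either allele move by as much as 4%.

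Tested gene by gene on Dom and Cast counts with edgeR's quasi-likelihood test, 100 of 246 genes (40.7%) had a lower Dom share on day 1 than on day 0 in SPOC at an adjusted p under 0.05, and 1 gene (0.407%) did in DelPID_SPOC. No gene rose in either line; at an unadjusted p under 0.05, 119 genes differed in SPOC and 15 in DelPID_SPOC in either direction. The number of clones differs between the lines, so the difference itself was tested. The change from day 0 was higher in DelPID_SPOC than in SPOC in 46 genes (18.7%) and lower in none, with 87 at an unadjusted p under 0.05 in either direction and 28 called by limma on the shares. All 46 were also called lower in SPOC. This count depends on the genes fitted together: with the fit and adjustment spread over 11827 genes of the whole genome, 1 of the X genes of the table passed, Eda. It also fell to 24 genes without G3 and to 24 without C11. On day 1 alone, 103 genes (41.9%) had a higher Dom share in DelPID_SPOC and 3 (1.22%) a lower one (87 without A8 and 66 without G3 in both directions together, against 106), whereas on day 0 1 gene, Dkc1 (0.407%), was higher and 2, F8 and 4930519F16Rik (0.813%), were lower. Of the 46 genes, 45 were also called higher on day 1, all but Dlg3 (these genes are named because the counts are small). The median difference per gene on day 1 was 0.0615, with quartiles of 0.0230 and 0.109.

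The 8 genes named for day 1, those with the largest difference in Dom share among genes with at least 50 allelic fragments in every library and groups that do not overlap, were also the 8 named for the change from day 0. Of these, 7 are described here: Phka1, Msn, Eda, Hdac8, Nhsl2, Hs6st2 and Aff2. The study's table classes Aff2 as intermediate and the other 6 as fast silencing, and all 7 as SPOC-independent.

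Phka1 (X, 102513974 to 102644246, mm10), the muscle alpha subunit of phosphorylase kinase, lies 0.816 Mb from Xist. Its Dom share on day 0 was 0.564 and 0.553 in A8 and G3 and 0.524, 0.448 and 0.500 in C11, D9 and H1. On day 1 it was 0.518 and 0.506 against 0.220, 0.228 and 0.196. The SPOC clones were low on day 1 and all other libraries were between 0.448 and 0.564. The difference on day 1 was 0.298 (adjusted p 3.1e-11) and that in the change from day 0 was 0.230 (adjusted p 8.09e-07).

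Eda (X, 99975605 to 100400760), the ectodysplasin ligand of the TNF family, had the most allelic fragments of the 7, at least 2228 per library, and Hs6st2 the fewest, at least 72. Its share was 0.475 and 0.476 on day 0 and 0.468 and 0.457 on day 1 in A8 and G3. In C11, D9 and H1 it went from 0.441, 0.445 and 0.455 to 0.190, 0.229 and 0.188. The change differed by 0.232 between the lines (adjusted p 2.6e-10), and that of the DelPID_SPOC clones did not reach the threshold (adjusted p 0.956).

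Hdac8 (X, 102284639 to 102505148), a histone deacetylase that also acts on cohesin, had shares on day 1 of 0.551 and 0.547 in A8 and G3 and of 0.260, 0.348 and 0.278 in C11, D9 and H1. On day 0 all 5 libraries lay between 0.518 and 0.563. Msn (X, 96096044 to 96168553), which encodes moesin, a linker of actin to the plasma membrane, had 0.621 and 0.559 against 0.310, 0.371 and 0.278 on day 1. Its share was higher on day 1 than on day 0 in both DelPID_SPOC clones, a change that did not pass the test (adjusted p 0.942).

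Nhsl2 (X, 101849384 to 102092055) had 0.481 ± 0.0308 (SD, n = 2) in DelPID_SPOC and 0.230 ± 0.0476 (SD, n = 3) in SPOC on day 1. Hs6st2 (X, 51386636 to 51681602), a heparan sulfate sulfotransferase, had 0.586 ± 0.0238 and 0.338 ± 0.00611. Aff2 (X, 69360330 to 69868037), a nuclear protein of the AF4/FMR2 family, had 0.535 ± 0.0207 and 0.296 ± 0.0516. Hs6st2 lies 51.8 Mb from Xist and Aff2 33.6 Mb, whereas the other 5 lie within 7.29 Mb.

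**Figure D2:**
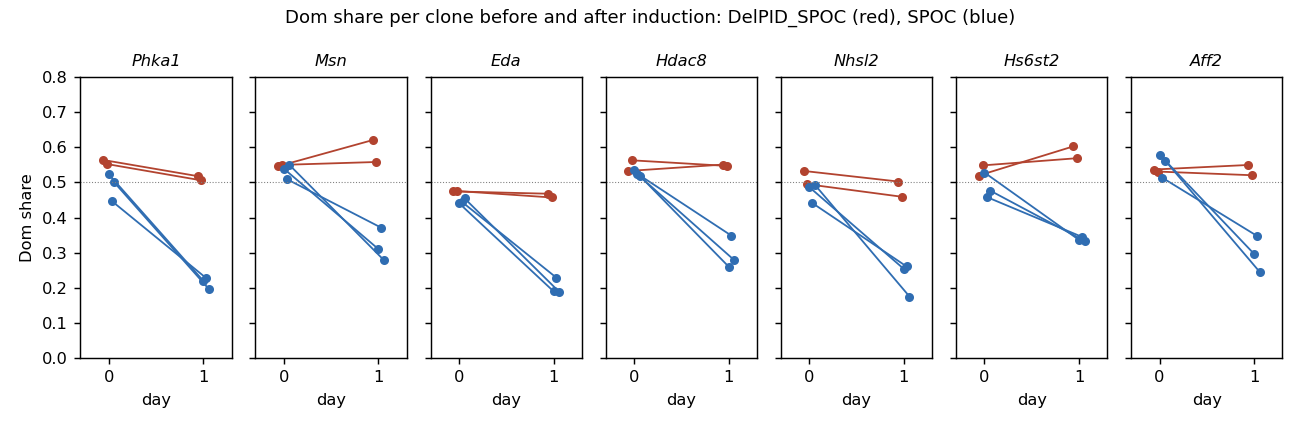
Dom share on day 0 and day 1 of 7 named X genes, 1 line per clone, DelPID_SPOC clones in red and SPOC clones in blue; the dotted line marks equal alleles. All blue lines fall and end between 0.175 and 0.371, and all red lines end between 0.457 and 0.621.

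The 1 gene that fell in DelPID_SPOC was 4930519F16Rik (X, 103232280 to 103256606), a transcript 0.204 Mb from Xist. Its share went from 0.369 to 0.275 in A8 and from 0.327 to 0.192 in G3 (adjusted p 0.0385), and from 0.495, 0.497 and 0.455 to 0.338, 0.320 and 0.245 in C11, D9 and H1 (adjusted p 0.00083). It fell in all 5 clones, and the test of a difference between the lines gave an adjusted p of 0.636. It was already lower in DelPID_SPOC on day 0 (adjusted p 0.0301). Limma on the shares did not call the fall in DelPID_SPOC, nor did the test without G3, C11 or D9. Of the 3 genes lower on day 1 in DelPID_SPOC, F8 and Slc25a5 met the naming rule, and Praf2, with 22 to 85 allelic fragments per library, did not. Praf2 had 0.444 and 0.375 in A8 and G3 on day 1 against 0.524, 0.703 and 0.535, and at most 0.474 in all 5 libraries of day 0. F8, the clotting factor VIII, had 0.697 and 0.568 in A8 and G3 against 0.741, 0.792 and 0.842, and on day 0 the shares were 0.684 and 0.572 against 0.758, 0.805 and 0.861. Slc25a5, a mitochondrial ADP/ATP carrier, had 0.265 and 0.370 on day 1 against 0.403, 0.439 and 0.465, and 0.286 and 0.352 on day 0 against 0.414, 0.370 and 0.439. Both thus stood lower before induction as well, F8 past the threshold (adjusted p 0.00883) and Slc25a5 not (adjusted p 0.188).

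The study's table classes the X genes by how fast they are silenced, by their SPOC dependence and by the chromatin of the gene before induction. The study set the SPOC-dependence classes from the NPC day 6 ratio of SPOC cells relative to that of uninduced day 0 samples. In this series the NPC day 6 libraries of SPOC come from D9 and H1, and day 0 is also the baseline used here. These classes are therefore no independent evidence here. For each class the median over its genes of each gene's own change is given, which is not the change of the class median. Among 81 fast silencing genes, this median change was -0.0241 and -0.00714 in A8 and G3. In C11, D9 and H1 it was -0.150, -0.0958 and -0.144. Among 81 intermediate genes the changes were -0.00921 and -0.0105 against -0.0713, -0.0519 and -0.0661. Among 82 slow genes they were -0.00123 and -0.00312 against -0.0338, -0.0172 and -0.0376. The lines were separated without overlap in each class, and the gap was widest for fast genes. The change was called higher in DelPID_SPOC in 33 fast genes (40.7%), 11 intermediate genes (13.6%) and 2 slow genes, Zfx and Yipf6 (2.44%), beside 18.7% of all 246.

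SPOC-independent genes, which by the study's cut lost a larger part of their share in SPOC by NPC day 6, numbered 151. Of these, 44 (29.1%) were called for the difference in change. Of the 95 SPOC-dependent genes, Slc9a7 and Zfx were (2.11%). Even in the SPOC-dependent class the median change was -0.00592 and -0.00344 in A8 and G3 and -0.0299, -0.0151 and -0.0259 in C11, D9 and H1. Genes that carried H3K27me3, the mark of PRC2, before induction numbered 38, with 13 called (34.2%). Their median change was -0.00461 and -0.0230 against -0.141, -0.102 and -0.134. The 174 genes with active chromatin had a median change of -0.0132 and -0.00371 against -0.0611, -0.0452 and -0.0619, with 29 called (16.7%). No test of one class against another was made.

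**Figure D3:**
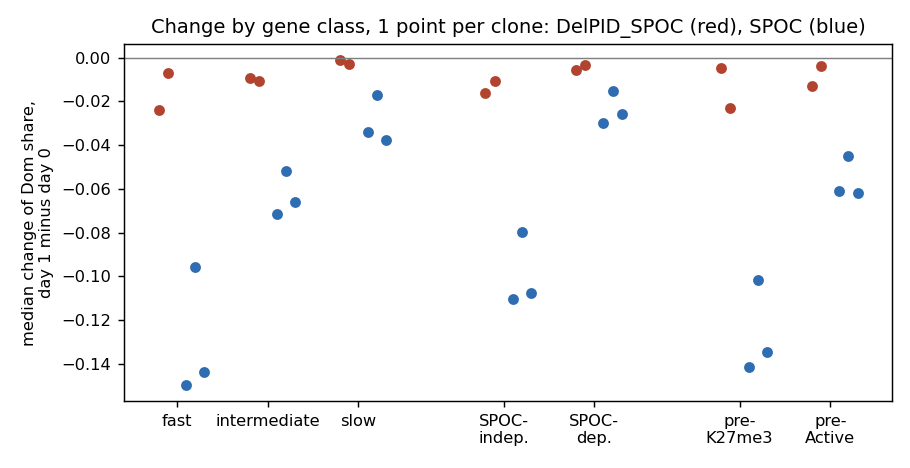
Median change of the Dom share from day 0 to day 1 by the study's gene classes, 1 point per clone, DelPID_SPOC in red and SPOC in blue. Red points lie between -0.0241 and -0.00123 in every class, and blue points run from -0.150 for fast genes to -0.0151 for SPOC-dependent genes.

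By distance, the change was called in 23 of 56 genes (41.1%) within 20 Mb of Xist, 9 of 64 (14.1%) at 20 to 40 Mb, 12 of 40 (30.0%) at 40 to 60 Mb, 0 of 17 at 60 to 80 Mb and 2 of 69, Clcn5 and Slc9a7 (2.90%), farther away. The median change within 20 Mb was -0.0138 and -0.00511 in A8 and G3 and -0.121, -0.0693 and -0.124 in C11, D9 and H1. Over 80 Mb away it was -0.000241 and -0.00431 against -0.0331, -0.0275 and -0.0420. By total level per kb on day 0, 20 of 82 genes in the lower tercile, 17 of 82 in the middle one and 9 of 82 in the upper one were called.

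Total expression, from all fragments of a gene without regard to allele, gives a separate reading and reaches genes that the share does not. For the 246 genes, the median log2 change from day 0 to day 1 was 0.000208 in A8 and 0.0161 in G3, against -0.275 in C11, -0.251 in D9 and -0.326 in H1. The difference between the lines was 0.292 (exact permutation p = 0.1). Beyond Xist no gene of the table is found, and there the median Dom share was at most 0.00531 in every library, day 0 included, so the alleles could not be read. The 218 genes tested beyond Xist changed by 0.00807 and 0.00797 in A8 and G3 and by -0.393, -0.320 and -0.459 in C11, D9 and H1, a difference of 0.399 (exact permutation p = 0.1). The 14588 autosomal genes tested had medians of 2.99e-05 and 0.00125 against 0.00149, -0.00767 and -0.0201 (exact permutation p = 0.4). The fall in SPOC was thus seen on both sides of Xist, and the DelPID_SPOC clones stayed within 0.0161 of no change on either.

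**Figure D4:**
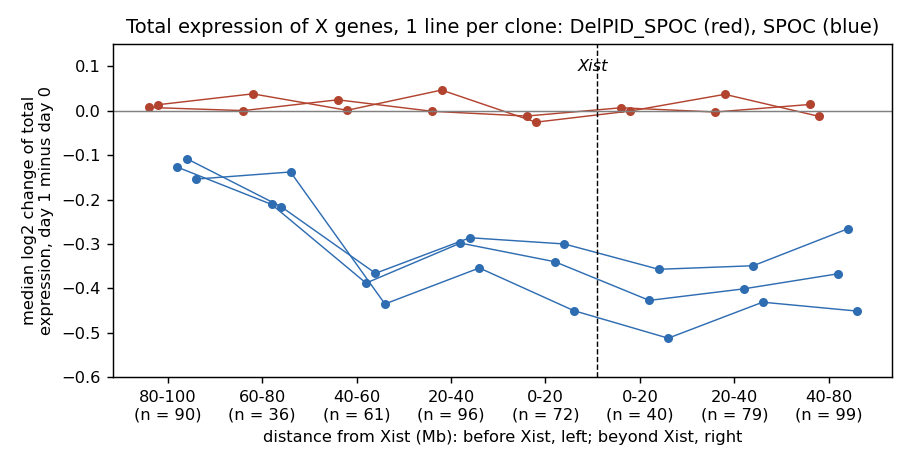
Median log2 change of total expression from day 0 to day 1 in windows by distance from Xist in Mb, 1 line per clone, DelPID_SPOC in red and SPOC in blue; the dashed line marks Xist and n is the number of genes. Red points lie between -0.0259 and 0.0463 and blue points between -0.512 and -0.108.

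In 8 windows along the chromosome, the DelPID_SPOC clones lay between -0.0259 and 0.0463 and the SPOC clones between -0.512 and -0.108. In the window 80 to 100 Mb before Xist, with 90 genes, C11, D9 and H1 had -0.127, -0.108 and -0.154. In the 20 Mb beyond Xist, with 40 genes, they had -0.427, -0.357 and -0.512, and A8 and G3 had 0.00643 and -0.000737.

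Single genes passed this test only when the clone was a term of the fit, which compares each clone with itself. Without it, edgeR's quasi-likelihood test called no gene for the difference in change between the lines (243 at an unadjusted p under 0.05; DESeq2 called none). With the clone as a term it called 184 genes of 15164 as higher in DelPID_SPOC (1.21%) and 106 as lower (0.699%). The higher ones included 73 of the 246 genes and 55 of the 218 genes beyond Xist. Of the 14588 autosomal genes, 48 were called higher and 106 lower, so the calls were not confined to the X. The same fit called 147 of the 246 and 137 of the 218 lower on day 1 than on day 0 in SPOC. In all, 1354 genes were lower in SPOC (8.93%) and 1187 higher (7.83%), of which 1041 and 1182 were autosomal. In DelPID_SPOC the fit called none of either X set, and over the genome 5 higher (0.033%) and 3 lower (0.0198%). For the Dom shares the clone term gave 52 genes (21.1%) for the difference in change, 99 (40.2%) for the fall in SPOC and 1 for that in DelPID_SPOC.

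In SPOC the total levels of the 7 genes fell along with their shares in each clone. Phka1 had 142 and 137 CPM (counts per library scaled to a common total, with TMM factors) in A8 and G3 on day 1 against 50.6, 43.6 and 60.7 in C11, D9 and H1, and 139 and 132 against 92.8, 70.9 and 125 on day 0. Its log2 change between days was 0.03 and 0.06 in DelPID_SPOC and -0.87, -0.69 and -1.03 in SPOC, and the difference, 0.92 with the clone as a term, had an adjusted p of 8.98e-05. Hs6st2 changed by -0.01 and 0.15 against -0.74, -0.68 and -1.47 (difference 1.03, adjusted p 0.00166), and Eda by 0.03 and -0.15 against -0.71, -0.61 and -1.05 (difference 0.73, adjusted p 0.00271). Nhsl2 did not pass (difference 0.46, adjusted p 0.0887), and the other 3 did. Across the 246 genes, the mean change of the share and the mean log2 change of the total had a Pearson r of 0.517 in SPOC and 0.101 in DelPID_SPOC; both come from the same libraries, and genes are not independent replicates.

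Xist itself was induced in both lines. It had 53.1 and 52.0 CPM in A8 and G3 on day 0 and 5440 and 4560 on day 1, and in C11, D9 and H1 it went from 34.2, 42.0 and 66.3 to 4010, 2390 and 3810. The DelPID_SPOC libraries were above all SPOC libraries on day 1, by 0.55 on the log2 scale (SE 0.28, adjusted p 0.225 in edgeR's quasi-likelihood test), which did not pass. The log2 rise was 6.57 (SE 0.40, adjusted p 0.000346) in DelPID_SPOC and 6.16 (SE 0.32, adjusted p 7.99e-05) in SPOC. Of the allelic Xist fragments on day 1, at least 99.2% were Dom in every library. On day 0 this was 99.6% and 99.6% in A8 and G3 and 86.5%, 54.6% and 79.6% in C11, D9 and H1, with 1 and 2 Cast fragments against 26, 110 and 78. Spen had 290 and 265 CPM on day 1 against 323, 275 and 305 (log2 fold change -0.12, SE 0.10, adjusted p 0.475), and gene counts show neither the point mutations nor, since the rest of Xist is still counted, the deletion.

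Besides Xist, the only gene called between days in the fit without the clone term was Rapgef4, a cAMP-regulated exchange factor for RAP GTPases, in each line (2 genes, 0.0132%, in each; named after its values were seen). It went from 10.7 and 13.2 CPM to 127 and 216 in A8 and G3 and from 4.28, 5.19 and 7.72 to 91.0, 98.3 and 75.3 in C11, D9 and H1.

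Between the lines, total expression differed widely, and most of this was present before induction. On day 1, 1075 of 15164 genes (7.09%) were higher and 747 (4.93%) lower in DelPID_SPOC, and on day 0, 917 (6.05%) and 823 (5.43%). The higher calls shared 689 genes, 64.1% of the day 1 and 75.1% of the day 0 calls, the lower ones 465, 62.2% and 56.5%. On the X, however, 140 of 575 genes were called higher on day 1 and 43 on day 0, with median log2 fold changes of 0.43 and 0.09. Leaving out C11 lowered the day 1 calls from 1822 to 198 and the day 0 calls from 1740 to 133, leaving out D9 lowered them to 579 and 339, and leaving out H1 to 1043 and 1042. Without A8 they rose to 2572 and 2730.

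Whole autosomes also moved together. On chromosome 11 the median Dom share per gene was 0.352 to 0.355 in the 4 DelPID_SPOC libraries and 0.477 to 0.542 in the 6 SPOC libraries, and 274 of 1209 genes were called higher on day 1 (median log2 fold change 0.38). On chromosome 18 it was 0.688 to 0.692 against 0.526 to 0.538, with 133 of 392 called higher (median 0.51). On chromosome 8 G3 had 0.509 to 0.511 and the other 8 libraries 0.349 to 0.353, and 64 of 801 were called lower (median -0.30). This was carried mainly by G3, with a median log2 fold change against the SPOC mean of -0.52, and -0.09 in A8. Over the 12 autosomes whose Dom share spanned under 0.04 among the 10 libraries, 400 of 9450 genes were called higher and 549 lower on day 1.

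**Figure D5:**
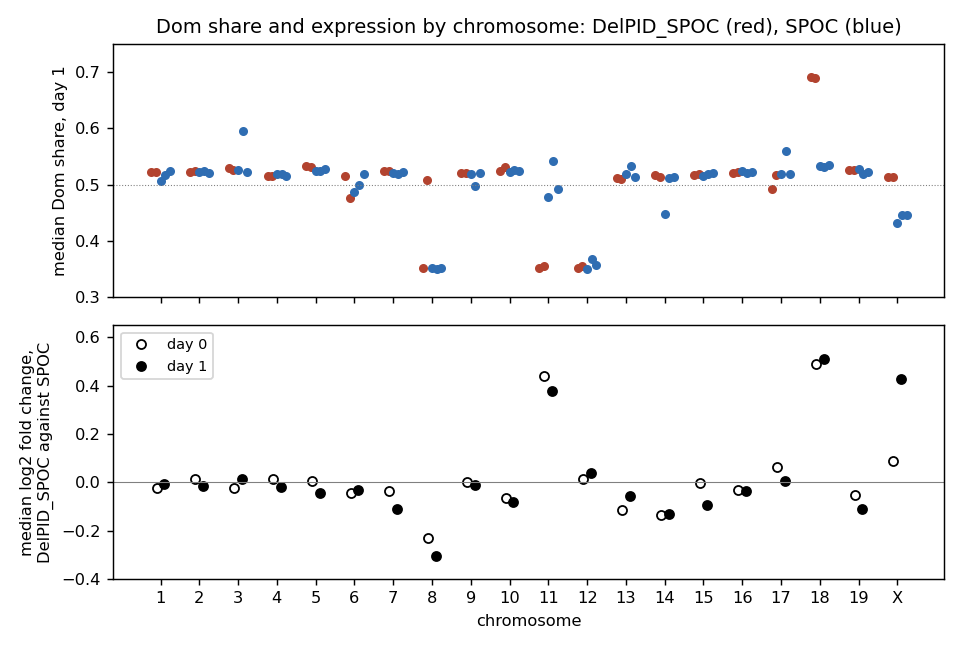
Upper panel: median Dom share of the genes of each chromosome on day 1, 1 point per clone, DelPID_SPOC in red and SPOC in blue. Lower panel: median log2 fold change of total expression, DelPID_SPOC against SPOC, on day 0 (open) and day 1 (filled); chromosomes 11 and 18 stand at 0.38 and 0.51 on day 1 and were high on day 0, whereas the X stood at 0.09 on day 0 and 0.43 on day 1.

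The genes named by size on day 1 were mostly such standing differences. Higher were Usp26 (X), a deubiquitinase, with 462 and 460 CPM against 36.7, 37.9 and 44.7 on day 1 and 427 and 466 against 68.4, 55.5 and 82.5 on day 0; Hormad2 (chromosome 11), a meiotic chromosome axis protein, with 868 and 751 against 101, 75.0 and 152; and Tnc, the matrix protein tenascin C, with 7.23 and 8.44 against 0.00, 0.995 and 0.272. The log2 fold changes were 3.54 (adjusted p 2.69e-05), 2.89 (adjusted p 0.00161) and 4.02 (adjusted p 0.0114). Filip1l and D130009I18Rik were carried by A8, with 11100 and 3760 CPM there, 109 and 48.5 in G3 and at most 26.6 and 7.15 in SPOC. Kctd16 (chromosome 18), a GABA-B receptor subunit, was highest in G3, with 41.6 and 196 CPM in A8 and G3 against 11.3 to 14.6. 1700008I05Rik (X) had 4.56 and 6.11 CPM against at most 0.303, from 0 to 7 fragments. Lower were Arhgef38, Atp2a3, Nyap2, Krtcap3, Caps2, Epha1, Gpx2 and Pde4c. Caps2, for example, had 2.67 and 2.66 CPM against 9.46, 11.5 and 8.91 (log2 fold change -1.90, adjusted p 0.00138), and Epha1, an ephrin receptor, 1.46 and 1.54 against 4.30, 5.93 and 6.19 (-1.86, adjusted p 0.00351). For day 0 the rule named Filip1l, D130009I18Rik, Tnc and Kctd16 again as higher and Gm2016, Arhgef38, Caps2 and Gpx2 as lower.

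Genes of the X inactivation centre, which is Xist and the region around it, were higher in DelPID_SPOC, 5 of 8 tested on day 1 and 4 on day 0. Of all genes, 7.09% and 6.05% were. The list medians were 0.89 and 0.75, against about 0 over all genes (-0.0015 and 0.00786). The list lies on the X, however, where 140 of 575 genes were called higher on day 1 and 43 on day 0. The medians of the X were 0.43 and 0.09. Nap1l2, a histone chaperone, had 12.9 and 14.8 CPM against 3.90, 3.50 and 4.97 on day 1 (log2 fold change 1.76, adjusted p 0.00198), Chic1 161 and 145 against 76.6, 74.6 and 84.6 (0.96, adjusted p 0.00209), and Jpx, a noncoding activator of Xist, 4.39 and 3.36 against 1.12, 1.77 and 1.16 (1.48, adjusted p 0.0313). Tsix, the antisense RNA of Xist, was also called, with 308 and 345 against 202, 245 and 201 (0.60, adjusted p 0.0293); fragments were counted by strand.

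The genes whose proteins carry out silencing were also compared. Of 13 genes tested in the list of Xist and its silencing partners, Xist included, 3 were lower and none higher on day 1. The counts were the same on day 0, beside 4.93% and 5.43% of all genes called lower. Lower on day 1 was Hnrnpk, which binds the B-repeat, with 407 and 328 CPM against 600, 646 and 593 (-0.74, adjusted p 0.00761). Hnrnpu had 504 and 433 against 685, 712 and 629 (-0.53, adjusted p 0.022). Zc3h13, of the m6A writer complex, had 172 and 168 against 332, 334 and 289 (-0.91, adjusted p 0.00437). Hnrnpk, on chromosome 13, was as low on day 0 (-0.85, adjusted p 0.00572). Of the 6 NCoR-HDAC3 genes, 1 was higher on day 1, beside 7.09% of all genes. It was Ncor1 (1550 and 1590 against 735, 761 and 578, log2 fold change 1.18, adjusted p 0.00279), which lies on chromosome 11. Tbl1x had 803 and 810 against 683, 718 and 578 (0.29, adjusted p 0.131).

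Among the 20 PRC1 genes tested, Auts2 (1.20, adjusted p 0.0113) and Yaf2 (0.51, adjusted p 0.0199) were higher on day 1, a share near the 7.09% of all genes. Among the 11 PRC2 genes, 1 was higher and 1 lower on day 1, beside 7.09% and 4.93% of all genes. Suz12, a core subunit on chromosome 11, was higher (946 and 766 CPM against 485, 380 and 444, 0.97, adjusted p 0.00835). Phf1, an accessory subunit, was lower (4.13 and 5.97 against 11.1, 10.6 and 8.23, -0.97, adjusted p 0.0295). Jarid2, a PRC2 cofactor, had 4440 CPM in A8 and 1650 in G3 against 1150 to 1290 (1.33, adjusted p 0.0598), carried mainly by A8. Of 20 autosomal Polycomb target genes listed, 9 passed the count filter, and none of these was called in either direction on day 1. Of all genes, 7.09% were called higher and 4.93% lower, so 0 of 9 tells little. Their median was -0.20, against -0.0015 over all genes, with sums of 24.1 and 24.0 CPM against 32.6, 23.3 and 28.3.

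X genes that regulate chromatin or signalling were read by share and by total. Among 15 X-linked chromatin regulators with a share, 6 were higher on day 1 and 1, Hdac8, was called for the change, beside 41.9% and 18.7% of all 246 genes, so these counts show nothing particular to the list. By total expression 23 were tested, of which 3 were higher and 1 lower on day 1. Of all genes 7.09% and 4.93% were, and of the 575 X genes tested 140 and 9. Higher were Hdac8 (1.17, adjusted p 0.00228), Ogt, the O-GlcNAc transferase (1110 and 1350 CPM against 708, 710 and 720, 0.79, adjusted p 0.00563), and Brwd3 (0.57, adjusted p 0.0378). Huwe1, a ubiquitin ligase, was lower (-0.45, adjusted p 0.0364). Of 8 X-linked signalling and pluripotency regulators with a share, 3 were higher on day 1, again near the 41.9% of all; Klhl13, an X-linked regulator of ERK signalling and pluripotency, was not, with a share of 0.360 ± 0.0535 (SD, n = 2) against 0.319 ± 0.0260 (SD, n = 3; adjusted p 0.077). None of 3 escape genes was called; Kdm6a, a histone demethylase that escapes silencing, had 0.561 ± 0.00571 (SD, n = 2) and 0.549 ± 0.0171 (SD, n = 3; adjusted p 0.522). Kdm5c, also an escape gene, has no share in the table, and its total level was 238 and 237 CPM against 227, 225 and 218.

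Markers of ES cells were present in all 10 libraries. Pou5f1, the core pluripotency factor OCT4, had 43.4 to 57.9 CPM, Esrrb 406 to 814 and Zfp42 458 to 767. None of 14 naive, 10 core and formative or 6 neural progenitor genes tested was called on day 1. Of all genes, 7.09% were called higher and 4.93% lower, so counts of 0 in lists this short tell little. The list medians were 0.08, 0.19 and 0.23, against -0.0015 over all genes. On day 0 they were 0.235, 0.457 and 0.143, against 0.00786, and 1 naive gene was called higher, beside 6.05% of all genes. Vim, counted among the neural genes and also expressed by fibroblasts, had 31.7 and 39.8 CPM against 19.9, 18.0 and 10.5 (1.15, adjusted p 0.0706). Of 8 fibroblast feeder markers tested, 3 were higher on day 1, beside 7.09% of all genes, with a list median of 1.18: Col5a2 (6.62 and 7.56 CPM against 1.52, 1.82 and 1.02), Col1a2 (2.67 and 3.92 against 1.19, 0.692 and 0.408) and Dcn (0.946 and 0.373 against 0.00, 0.0433 and 0.00). The 12 markers summed to 16.5 and 22.7 CPM in A8 and G3 and to 7.15, 8.39 and 7.54 in C11, D9 and H1; their part in the differences between the lines was not tested. Of 9 primitive endoderm genes tested, 1 was higher on day 1, again beside 7.09% of all genes. It was Sparc (33.9 and 44.1 against 19.0, 15.2 and 18.5, 1.16, adjusted p 0.00535), which lies on chromosome 11. Lama1 had 583 and 896 against 319, 478 and 221 (1.12, adjusted p 0.0872).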

How the data were processed

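Chromatin-associated RNA-seq of 10 ES cultures was used. According to the submitters' processing notes and the methods of the study, the authors filtered out ribosomal reads with Bowtie2 2.3.2, aligned pairs with STAR 2.4.2a to mm10 with strain differences masked, split them by allele with SNPsplit and counted them by strand over whole transcripts, introns included, with featureCounts 1.5.2. The deposited files hold raw counts per gene for all, Cast and Dom fragments. The deposited table of 246 X genes holds the allelic ratio, a fraction, with the gene classes; the authors' filters for it were not repeated. Ratios recomputed from the deposited counts differed by at most 5.6e-16.

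From the counts, total expression was tested with edgeR 4.0.16 (quasi-likelihood test, filterByExpr, TMM, 15164 genes) and Dom against Cast counts with the same test and 1 intercept per library over the 246 genes, with 1 mean per line and day over the 10 libraries and Benjamini-Hochberg adjustment at 0.05. Library medians were compared by exact permutation. R 4.3.3, limma 3.58.1, DESeq2 1.42.0 and Python 3.11.15 were used. The tests were also run on simulated counts, with each library drawn independently, so without the pairing of days by clone. A shift of 0.1 in Dom share was recovered in 58% of changed genes between days in SPOC and in 36% in DelPID_SPOC. For the difference in change it was 26%. With a shift of 0.2 these were 88%, 82% and 62%. Days of 1 clone are 1 cell line, so clones pair days: deviations from the group means correlated by 0.479 to 0.863 between days of a clone. Between lines, days of a clone are not independent, and p-values can be too small. Replicates differed beyond counting error (chi-square per degree of freedom of at least 11.1); that, and any depth limit, covers counting error only, as fragments carried no molecular identifiers. Groups came from the titles.

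Genes were named by a rule: Xist and Spen, up to 8 X genes per direction (3 between days) with the largest change of share, an adjusted p under 0.05, at least 50 allelic fragments per library and groups that do not overlap, up to 8 genes per direction on day 1 and 4 on day 0 by total log2 fold change with at least 5 CPM in 1 group, and up to 4 members per gene list, called ones first. The samples, the rule and the 17 lists were chosen with earlier results of these data known. Genes named outside the rule were chosen after their values were seen: Rapgef4, Tsix, Dkc1, Dlg3, Dusp4, Praf2, Zfx, Yipf6, Slc9a7 and Clcn5 among them. A few genes that met the rule are not reported here. Alternatives were another test or scale, coverage minimum, gene set, normalization, filter, libraries in the fit, the clone as a term and each clone left out.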

Additional observations from a re-analysis of the deposited data

Results flagged for a closer look

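Results differed between the lines under the same contrast, day 1 against day 0. The Dom share changed differently in 46 X genes, all with the smaller loss in DelPID_SPOC. Total expression changed differently in 290 genes, in the fit with the clone as a term. The difference itself was tested in both, by the interaction of line and day in edgeR's quasi-likelihood test.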

How the results depend on the processing

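The difference in median Dom share kept its direction under each alternative run. With each clone left out it ranged from 0.068 to 0.0743 on day 1 and from 0.0523 to 0.0682 in the change from day 0. With pooled fragments, the lowest of the other settings, the 2 values were 0.0496 and 0.0452. With all X genes with at least 10 allelic fragments in each library, the highest, they were 0.0920 and 0.0937. That set includes genes beyond Xist, whose alleles could not be read, and its genes before Xist gave 0.0714 and 0.0597. The medians of total log2 change ranged from 0.271 to 0.309 for the 246 genes and from 0.365 to 0.434 beyond Xist with a clone left out. Xist on day 1 ranged from 0.33 to 0.67 and did not pass in any. With 2 against 3 clones the permutation test cannot pass 0.05.

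The counts of called X genes moved more. The 106 genes of day 1 became 66 with all 58 libraries, 55 in the genome-wide fit and 66 to 96 with a clone left out. The 46 genes with a different change became 28 with limma on the shares, 26 with limma on the log2 odds, 23 with all 58 libraries, 1 genome-wide and 24 to 55 with a clone left out. The 100 genes of SPOC became 23 genome-wide and 73 to 99 with a clone left out, and the 1 gene of DelPID_SPOC became 0 with limma on the shares or the log2 odds, with all 58 libraries and genome-wide, and 0 to 2 with a clone left out. The genome-wide fit held 234 of the 246 genes and adjusted over more genes; the cause of the other changes was not tested.

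For total expression, the 1822 calls of day 1 became 1165 with the 26 ES libraries, 1023 with the 5 day 1 libraries, 949 on autosomes with an even Dom share (a setting chosen after seeing the data) and 198 to 2572 with a clone left out. The 1740 of day 0 became 911 on those autosomes and 133 to 2730 with a clone left out. The 2 genes of SPOC became 54 with DESeq2 and 4 with the 26 ES libraries, and 1 to 2 with a clone left out, as did the 2 of DelPID_SPOC; no clone left out gave a call (0 to 0) for the difference in change. The replicate block, that is the pairing of days by clone, gave 290 genes for the difference in change, 2541 in SPOC and 8 in DelPID_SPOC, and for the Dom shares 52, 99 and 1.

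Of the named genes and list members, 53 of 88 missed the threshold under at least 1 alternative and none changed sign.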

Other observations

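Of 14 genes that report the output of ERK signalling, 4, all feedback inhibitors of the pathway, were lower in DelPID_SPOC on day 1 and none was higher, with a median log2 fold change of -0.57 on day 1 and -0.40 on day 0 beside -0.0015 and 0.00786 over all genes; 4.93% of all genes were called lower on day 1. Dusp6, a phosphatase of ERK, had 6.62 and 7.09 CPM in A8 and G3 and 15.0, 11.4 and 11.3 in C11, D9 and H1 (-0.87, adjusted p 0.0252). Dusp5 had 5.08 and 6.72 against 14.1, 11.1 and 10.9 (-1.02, adjusted p 0.0151) and Spry2, a receptor signalling inhibitor, 10.1 and 7.28 against 22.5, 16.5 and 14.8 (-1.06, adjusted p 0.0278). Spry4 had 14.9 and 19.8 against 45.2, 36.8 and 29.9 (-1.10, adjusted p 0.0371), although it lies on chromosome 18, whose genes had a median of 0.51. On day 0 only Dusp5 was called (-0.87, adjusted p 0.027), and no member was called for the difference in change from day 0 without the clone as a term. With it, 1 was, the ERK phosphatase Dusp4 (-0.65, adjusted p 0.0381), beside 0.699% of all genes; on day 1 it did not pass (adjusted p 0.168).

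Of 14 ATF4 target genes, 3 were lower on day 1 and none on day 0, beside 4.93% and 5.43% of all genes, with medians of -0.29 and -0.13 beside -0.0015 and 0.00786. Chac1, which degrades glutathione, had 1.72 and 0.933 CPM against 3.84, 2.77 and 4.56 (-1.53, adjusted p 0.029), Atf5 1.20 and 0.980 against 3.04, 2.77 and 3.20 (-1.47, adjusted p 0.00945), and Aldh18a1, of proline synthesis, 30.2 and 25.5 against 38.2, 39.5 and 38.4 (-0.48, adjusted p 0.0369). Of 12 p53 targets, Zmat3 was higher (0.37, adjusted p 0.0455) and Eda2r, an X-linked receptor of ectodysplasin, and Aen lower (-0.52, adjusted p 0.0249, and -0.61, adjusted p 0.00939), with a median of -0.01; 7.09% of all genes were called higher and 4.93% lower.

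Single SPOC clones also had chromosomes with a Dom share of their own on day 1. Chromosome 3 had 0.596 in D9 and 0.522 to 0.529 in the other 4 clones, and chromosome 14 had 0.448 in C11 and 0.512 to 0.518 in the others. Chromosome 12 had 0.350 to 0.368 in all 5 clones.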
